A study of Mus musculus with 2 samples.

Results

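Voltage-gated sodium and calcium channel genes, the genes of intracellular calcium release channels and those of the plasma membrane calcium pumps were examined in chromatin loop lists from mouse cortex. They were chosen by symbol: all autosomal protein-coding Scn genes for alpha and beta subunits, all Cacn genes, Ryr1 to Ryr3, Itpr1 to Itpr3 and the Atp2b pump genes. The rule found 48 genes among 20665 autosomal protein-coding genes. Loops were counted at a gene when an anchor lay within 2.5 kb of either end of it, which gave 49 distinct loops among 15592 in MCAO and 42 among 14779 in Sham.

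The loops came from Hi-C, which ligates and sequences DNA segments that lie close together in the nucleus. MCAO mice had the middle cerebral artery closed by an intraluminal filament for 1 h and were killed after 6 h of reperfusion. Sham mice had the same surgery without advance of the filament or closure of the artery, and the same 6 h of recovery. Tissue was the cortex of the operated side, with 3 cortices named per group and 1 loop list per group. Strain, sex and age are not given in the labels used here, and the step at which cortices were pooled is not stated. Each value below is therefore from 1 library per group, without a replicate check and without a test between the groups. The 95% intervals given cover counting error only. In whole tissue, fewer cells of a type and fewer contacts per cell cannot be told apart.

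Sodium channels open on depolarisation and carry the upstroke of the action potential. Calcium channels turn the same depolarisation into calcium entry, which triggers transmitter release and signals to the nucleus. Ryanodine and inositol trisphosphate receptors release calcium from the endoplasmic reticulum, and the plasma membrane pumps expel it. In ischaemic brain tissue, loss of ATP depolarises neurons, and sodium and calcium enter in excess through these and other routes.

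The library totals, in paired-end tags (PETs, read pairs that join the anchors), were 40550536 in MCAO and 34974213 in Sham, a depth ratio of 1.16. Both lists began at 10 PETs per loop, so absence from a list can mean a loop of slightly fewer PETs. A loop list holds no RNA levels, so the tissue label could not be checked by expression. Loops at cell type marker genes numbered 7 in MCAO and 7 in Sham for neurons, 10 and 4 for astrocytes, and 7 and 10 for the oligodendrocyte lineage. For microglia they numbered 2 in MCAO and 2 in Sham, for endothelium 2 and 3, and for neutrophils 1 and 1. The part of cell composition in any result below was not tested.

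Start-site windows of 5 transcripts are shown first because loops described below turn on them. In MCAO, 1 loop joined both Scn2a starts and another both Atp2b2 starts, and the Scn7a start lay in the strongest cluster loops of both lists. Each window runs from 250 bases before to 50 after an annotated start (RefSeq, GRCm38.p6, the assembly of mm10), 5′ to 3′ on the gene's strand. Capitals mark a match to the motif of CTCF, the insulator protein found at many loop anchors, in the inner Scn2a window, and to GGACAG, read on the opposite strand, in the outer Atp2b2 window. CAGCACC and GGACAG are the left and right parts of RE1, the site of the neuronal gene repressor REST.
Scn2a, outer start, chr2:65620519-65620818, plus strand: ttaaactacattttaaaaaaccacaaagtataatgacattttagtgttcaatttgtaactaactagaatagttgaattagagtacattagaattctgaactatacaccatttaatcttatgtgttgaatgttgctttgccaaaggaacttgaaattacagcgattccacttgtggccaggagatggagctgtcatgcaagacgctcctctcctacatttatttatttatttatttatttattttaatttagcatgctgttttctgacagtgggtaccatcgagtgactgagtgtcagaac
Scn2a, inner start, chr2:65668436-65668735, plus strand: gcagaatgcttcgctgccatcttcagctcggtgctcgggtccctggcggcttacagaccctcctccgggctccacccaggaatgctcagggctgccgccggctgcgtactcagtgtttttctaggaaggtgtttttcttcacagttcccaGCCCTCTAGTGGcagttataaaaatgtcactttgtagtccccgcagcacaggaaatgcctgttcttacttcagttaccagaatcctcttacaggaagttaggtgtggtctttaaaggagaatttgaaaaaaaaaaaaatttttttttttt
Atp2b2, outer start, chr6:114042031-114042330, minus strand: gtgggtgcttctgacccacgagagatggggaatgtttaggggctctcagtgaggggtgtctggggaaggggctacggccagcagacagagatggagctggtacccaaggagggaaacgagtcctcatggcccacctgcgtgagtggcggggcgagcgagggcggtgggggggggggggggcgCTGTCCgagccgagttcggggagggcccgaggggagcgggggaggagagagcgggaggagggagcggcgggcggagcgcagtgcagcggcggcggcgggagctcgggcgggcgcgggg
Atp2b2, inner start, chr6:113934632-113934931, minus strand: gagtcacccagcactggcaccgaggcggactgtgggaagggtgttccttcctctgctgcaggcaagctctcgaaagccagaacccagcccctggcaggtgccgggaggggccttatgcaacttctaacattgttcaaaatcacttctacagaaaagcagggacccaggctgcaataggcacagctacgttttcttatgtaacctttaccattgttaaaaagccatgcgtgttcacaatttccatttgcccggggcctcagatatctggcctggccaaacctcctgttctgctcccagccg
Scn7a, start, chr2:66784861-66785160, minus strand: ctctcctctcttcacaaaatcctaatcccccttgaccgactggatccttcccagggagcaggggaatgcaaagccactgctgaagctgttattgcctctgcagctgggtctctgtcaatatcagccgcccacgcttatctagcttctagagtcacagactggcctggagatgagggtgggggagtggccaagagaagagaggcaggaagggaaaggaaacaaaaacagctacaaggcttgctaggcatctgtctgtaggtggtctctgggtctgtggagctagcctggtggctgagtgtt
Both strands of all 32851 windows were searched. The CTCF core was in 2.43% of them, GGACAG in 22.2%, CAGCACC in 7.14% and the AP-1 site TGANTCA in 7.81%. Of the 50 windows of channel genes, 2 held the CTCF core, 9 held GGACAG, 1 held CAGCACC and 1 held the AP-1 site, and no 2 motifs overlapped in the windows shown. These windows had a median GC content of 60.3%, against 52.7% for all windows, while the outer Scn2a window had 33.0% and the outer Atp2b2 window 72.7%. Of the 32851 windows, 20085 belonged to autosomal protein-coding genes, the kind from which the channel genes were chosen. Motif shares and GC content are not given for that subset alone.

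As a group, the channel genes had about as many loops per PET in both libraries. The 49 MCAO loops and 42 Sham loops gave a ratio of 1.17 (0.757 to 1.81), against 1.24 (1.20 to 1.27) for all autosomal loops at a gene end. Per 1000000 PETs this was 1.21 loops in MCAO and 1.20 in Sham. With the MCAO minimum raised to 12 PETs to offset its greater depth, 32 MCAO loops stood against 42 Sham loops, and the ratio turned to 0.762 (0.466 to 1.24), against 0.829 for all autosomal loops at a gene end. Of the 48 genes, 22 (45.8%, against 30.4% of all autosomal genes) carried loops in each list. A further 10 (20.8%, against 19.2%) carried them in the MCAO list alone and 4 (8.33%, against 14%) in the Sham list alone, while 12 carried none. A loop in at least 1 list was thus present at 75.0% of the genes, against 63.7% of all autosomal genes and 84.7% of those of at least 100 kb. The channel genes were long, with a median of 111 kb against 17.5 kb.

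More loops in MCAO than in Sham were listed at 18 channel genes, with fewer at 9 and equal numbers at 21. Across all autosomal genes 29.7% had more and 21.3% fewer. A difference of at least 2 loops was found in favour of MCAO at 4 genes, 8.33% of the 48 against a background of 10.2%. These were Cacng2, Ryr2, Itpr2 and Atp2b2. In favour of Sham it was found at 4 others, 8.33% against 5.45%: Cacng3, Cacng5, Itpr1 and Atp2b4. Among genes of at least 100 kb the same difference was met by 17.5% and 10.2%, so neither share of the channel genes stood far from the background. At a difference of 3 loops only Atp2b2 remained, where 3.18% of all genes passed, and no channel gene passed in the other direction, where 1.39% did. With at least 15 PETs per loop, no channel gene differed by 2 loops in either direction. With the MCAO minimum raised for depth, 1 gene had at least 2 more loops in MCAO, where 5.02% of all genes passed, and 6 had at least 2 fewer, where 7.66% did.

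**Figure D1:**
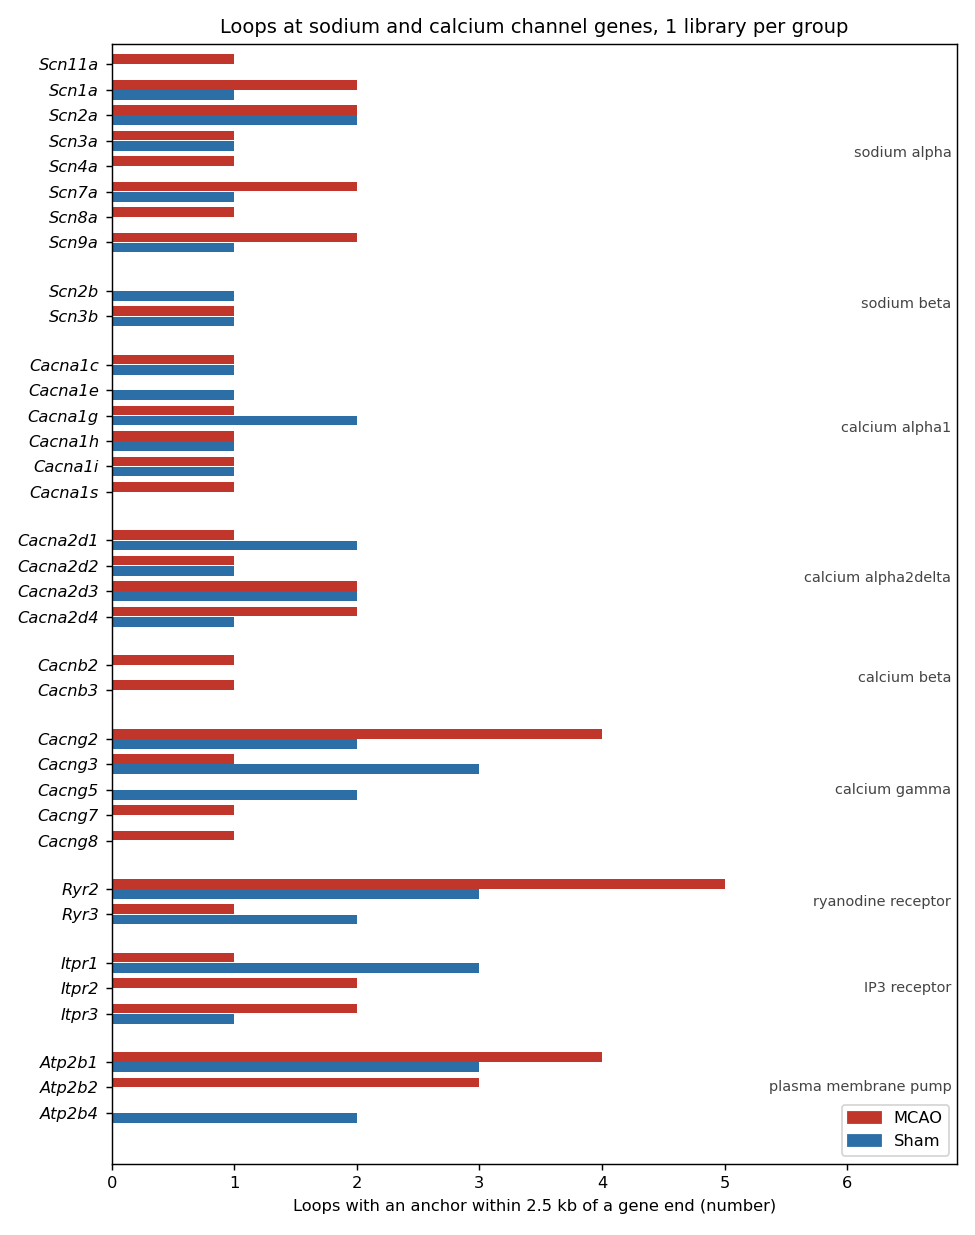
Number of loops with an anchor within 2.5 kb of a gene end (horizontal axis) at the channel genes named here that had a loop, grouped by family, with the MCAO bar above the Sham bar of each gene and 1 library per group. Ryr2 has the most loops in MCAO (5), and Ryr2, Cacng3, Itpr1 and Atp2b1 the most in Sham (3 each).

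Among the alpha subunits of sodium channels, which form the pore, MCAO had more loops at 6 of 10 genes and fewer at none. The shares of all autosomal genes were 29.7% with more and 21.3% with fewer. The family had 14 gene-loop pairs in MCAO and 8 in Sham, a ratio of 1.75 (0.685 to 4.81) whose interval held 1. All autosomal genes had 18278 such pairs in MCAO and 15031 in Sham. These pairs are not independent, because 1 MCAO loop of 27 PETs was counted at Scn1a, Scn9a and Scn7a, and 1 loop in each list at both Scn1a and Scn7a. Distinct loops numbered 11 in MCAO and 7 in Sham, a ratio of 1.57 (0.556 to 4.78). This interval held 1 and the 1.24 of all autosomal loops at a gene end. Scn1a, the channel gene of many inhibitory neurons, had 2 loops in MCAO and 1 in Sham, as did Scn9a, known from sensory neurons, and Scn7a, whose product is a sodium-sensing channel relative. Without the loop of 27 PETs, each of these 3 genes had 1 loop in each list. Scn8a, the gene of a channel at axon initial segments and nodes, had 1 loop in MCAO and 0 in Sham. So did Scn4a, of skeletal muscle, and Scn11a, of sensory neurons. The single loops of Scn8a and Scn4a carried 10 PETs each, the listing minimum. The Scn11a loop carried 15 and had a Sham loop within 2 anchor widths. Equal numbers stood at Scn2a, the channel gene of excitatory neurons (2 and 2), and at Scn3a, expressed most in the embryonic brain (1 and 1). Scn10a, of sensory neurons, had none. In the 9 alternative settings tried, the family's difference lay between 3 and 8 gene-loop pairs in favour of MCAO. These are pairs and not distinct loops, so 1 loop can enter more than once.

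The Scn cluster of chromosome 2 holds 5 of these genes on 1328 kb (65457118 to 66784910). In order of position they are Scn3a, Scn2a, Scn1a, Scn9a and Scn7a, with Csrnp3, Galnt3 and Ttc21b between Scn2a and Scn1a. Counted over the whole region rather than at gene ends, 12 MCAO loops and 19 Sham loops had an anchor there, a ratio of 0.632 (0.280 to 1.37). The difference lay among weak loops: 5 MCAO loops and 13 Sham loops carried 10 to 12 PETs, and 6 MCAO loops and 4 Sham loops carried at least 15. At 15 PETs the ratio was thus 1.50 (0.356 to 7.23), on the other side of 1. The raised MCAO minimum left 11 MCAO loops beside the 19 Sham loops. Loops of the cluster summed to 197 PETs in MCAO and 235 in Sham, or 4.86 and 6.72 per 1000000 library PETs. Read depth at the anchors had a median of 0.680 reads per kb per 1000000 PETs in MCAO and 0.764 in Sham.

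Inside the cluster, the loops of both lists were also counted by position. Both anchors lay in bodies of Scn genes for 6 MCAO loops and 3 Sham loops. Both anchors lay between Scn2a and Scn1a, at or near the intervening non-channel genes, for 1 MCAO loop and 6 Sham loops. Csrnp3 had 1 loop at its ends in MCAO and 3 in Sham, Ttc21b had 3 and 4, and Galnt3 had none. The 6 Sham loops carried 10 to 16 PETs, and 5 of them 10 or 11.

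Of the cluster's loops, 3 of each list had a partner in the other list (both anchor midpoints within the width of the wider anchor). The longest matched loop joined the Scn1a and Ttc21b ends (66211888 to 66279165 in MCAO) to the Scn7a start (66766293 to 66808756). It carried 21 PETs in MCAO and 25 in Sham, 0.518 and 0.715 per 1000000 PETs, a ratio of 0.724 (0.386 to 1.35). The second, from the Ttc21b end at 66249786 to 66264069 into the Scn1a body at 66399837 to 66417499, had 14 PETs in MCAO and 15 in Sham. The third ran from 65404572 to 65425343, below Scn3a, to 65662313 to 65677385 in Scn2a, with 15 PETs in MCAO and 10 in Sham. Its MCAO anchor in Scn2a contained the inner start window shown above, while its Sham anchor, 65674757 to 65689225, lay beyond that window.

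The strongest cluster loop of the MCAO list had no partner in Sham. It joined the neighbouring ends of Scn1a and Scn9a (66442635 to 66512629) to the Scn7a start (66782430 to 66813755) with 27 PETs. Next came a loop of 26 PETs from below Scn3a (65411163 to 65422782) to the upper end of Scn3a (65559589 to 65573741), which had a Sham loop within 2 anchor widths. A loop of 20 PETs over 796 kb tied the region below Scn3a to Ttc21b. Scn9a also had a loop of 15 PETs between its start (66627762 to 66647160) and the Scn1a body. In Sham the single Scn9a loop, also of 15 PETs, led out of the cluster, from the gene's lower end (66467907 to 66512823) to 66933855 to 66964916. At Scn3a the Sham loop (14 PETs) ran from 65538740 to 65574040 to the upper end of Csrnp3, at 66010971 to 66044644.

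At Scn2a both lists held 2 loops, but none matched. Both MCAO loops left the outer start and stayed within the gene: one from 65617759 to 65623509 to 65664741 to 65674678, a span of 49.1 kb that placed both start windows shown above in opposite anchors, and one from 65616285 to 65629292 to 65704641 to 65723294. Each carried 12 PETs. The Sham loops left the gene, one from the outer start (65619854 to 65641354) to 65915263 to 65941666 within Csrnp3 (10 PETs) and one from the far end of Scn2a (65767403 to 65793449) to 65327424 to 65357580 below Scn3a (11 PETs). All 4 lay at or near the minimum.

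**Figure D2:**
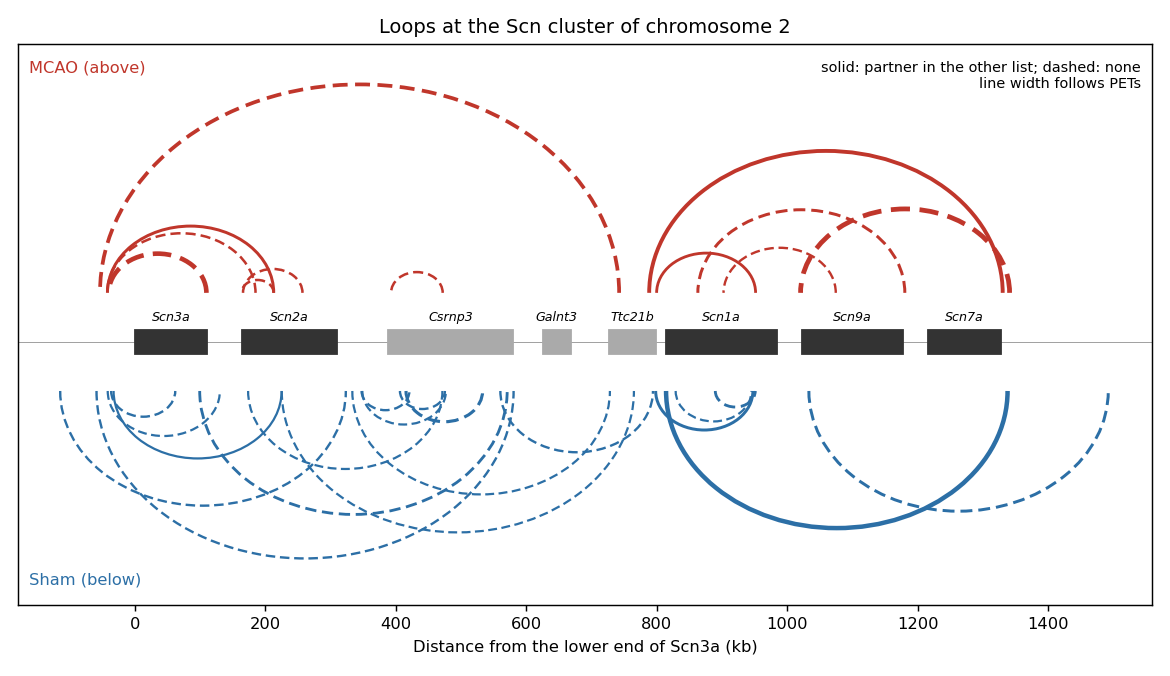
Loops at the Scn cluster of chromosome 2, drawn as arcs between anchor midpoints with MCAO above and Sham below; the horizontal axis is the distance in kb from the lower end of Scn3a, dark boxes are Scn genes and grey boxes other genes. Line width follows PETs, and solid arcs have a partner in the other list (3 in each). The right end, from Scn1a to Scn7a, holds the MCAO arc of 27 PETs, and the middle, at Csrnp3, holds mainly Sham arcs.

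Outside the cluster, the Scn11a loop of MCAO went to Exog, a mitochondrial nuclease gene (15 PETs). Of the beta subunits, small adhesion-like partners of the pore, Scn3b had 1 loop in each list, Scn2b had 0 in MCAO and 1 in Sham, and Scn4b had none.

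The pore-forming alpha1 subunits of calcium channels had 5 gene-loop pairs in MCAO and 6 in Sham. Cacna1c, an L-type channel gene that couples activity to gene transcription, had 1 loop in each. Cacna1e, of R-type channels, had 0 in MCAO and 1 in Sham, to Xpr1 (17 PETs). Among the low-threshold T-type genes, Cacna1g had 1 and 2, Cacna1h 1 and 1 and Cacna1i 1 and 1. Cacna1s, the skeletal muscle L-type gene, had 1 and 0. The P/Q-type gene Cacna1a and the N-type gene Cacna1b, both of presynaptic terminals, and the L-type gene Cacna1d had no loop at an end.

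Loops with both anchors on the body of 1 channel gene gave a fuller picture of the long calcium channel genes. They numbered 30 in 13 genes in MCAO and 21 in 12 genes in Sham. Most of the MCAO loops carried 10 or 11 PETs, so with the MCAO minimum raised to 12 fewer stood in MCAO than in Sham. The gene counts that follow share this limit, and such loops were not counted over all genes. Cacna1d had 5 in MCAO and 4 in Sham, Cacna1e 4 and 1, Cacna1a 2 and 1, and Cacna1c 2 and 3. One loop inside Cacna1c stood out in PETs: 118907075 to 118946918 with 119088641 to 119109522 (chromosome 6, 172 kb) carried 47 PETs in MCAO, and its Sham partner carried 11. Per 1000000 PETs this was 1.16 in MCAO and 0.315 in Sham, a ratio of 3.69 (1.88 to 7.88). The anchors were 39.8 and 20.9 kb wide in MCAO and 10.98 and 14.4 kb wide in Sham, and the part of anchor width in this ratio was not tested. This ratio was the largest among the matched loops at channel genes, inside or at their ends, and the upper anchor held an annotated start of Cacna1c in both lists. It was singled out after its values were seen.

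The auxiliary alpha2delta subunits, which raise channel number at the membrane and are the target of gabapentin, had 6 gene-loop pairs in each list. Cacna2d1 had 1 loop in MCAO and 2 in Sham, Cacna2d2 1 and 1, Cacna2d3 2 and 2 and Cacna2d4 2 and 1. A loop that joined 2 members, over 710 kb in MCAO, ran from the lower end of Cacna1c (118586697 to 118674588) to Cacna2d4, Lrtm2 and Adipor2 (119315255 to 119366844). It carried 33 PETs in MCAO. In Sham 2 weaker loops took the same course, with 17 PETs at Cacna2d4 and 12 PETs at Cacna1c. Against the nearer of them the ratio per 1000000 PETs was 1.67 (0.906 to 3.20). Both Sham loops had this 1 MCAO loop as their partner, so that ratio leaves out the PETs of the other. Per 1000000 PETs the MCAO loop had 0.814, and the Sham loops 0.486 and 0.343. The MCAO anchor at Cacna1c was 87.9 kb wide, against 40.0 and 29.0 kb for the Sham loops, and the part of anchor width in the count was not tested. The beta subunits, which bind the pore from the cytoplasm, had 2 loops in MCAO (Cacnb2 and Cacnb3, 10 PETs each) and 0 in Sham. Cacnb1 and Cacnb4 had none at their ends.

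Most gamma subunit genes of brain encode partners of AMPA receptors, which carry them to synapses. The family had 7 gene-loop pairs in each list. Cacng2 and Cacng3 together held 5 of the 7 in each, divided 4 and 1 in MCAO and 2 and 3 in Sham. Cacng2, the stargazin gene (chromosome 15, 77991919 to 78120220), had 4 loops in MCAO, with 12, 33, 20 and 12 PETs, and 2 in Sham, with 15 and 11. Both Sham loops had partners. The stronger, from the gene's lower end and Eif3d (77965963 to 77990605 in MCAO) to Ift27 (78150652 to 78176789), carried 33 PETs in MCAO and 15 in Sham, a ratio per 1000000 PETs of 1.90 (1.00 to 3.76). The other joined both ends of Cacng2 with 20 PETs in MCAO and 11 in Sham (1.57, 0.716 to 3.62). Of the 2 further MCAO loops, one ran from 77963810 to 78002311 to Tst, Mpst and Tex33 (78391723 to 78417080). The last ran from 77992427 to 78011618 to Ift27 (78170417 to 78178773) and nearly repeated the strong loop.

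Cacng3 and Cacng5 had fewer loops in MCAO. Cacng3 (chromosome 7, 122671744 to 122769393) had 1 MCAO loop, of 18 PETs, from its start (122661478 to 122679894) to 122483158 to 122500444. In Sham it had 3, with 20, 22 and 12 PETs. The loop of 22 PETs also left the start (122667858 to 122681044), for 122569748 to 122590717. The other Sham loops used the far end and reached 122235227 to 122267591 and, at Rbbp6, 122953552 to 122977978. No Cacng3 loop had a partner. Cacng5 (chromosome 11, 107874604 to 107915055) had no MCAO loop, and in Sham a loop of 32 PETs from 107831018 to 107892176 to Apoh and Cep112 (108385170 to 108444983) and one of 11 PETs from 107862587 to 107879110 to Prkca (107934483 to 107945499). With the window at gene ends widened to 10 kb, Cacng5 had 3 loops in MCAO and 2 in Sham, so its direction turned. Cacng7 and Cacng8, neighbours on chromosome 7, had 1 loop each in MCAO (11 PETs each) and 0 in Sham. Cacng4 and the muscle genes Cacng1 and Cacng6 had none.

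Ryr2, the ryanodine receptor gene of heart and brain (chromosome 13, 11553099 to 12106945), had the most loops of any channel gene in MCAO, 5 against 3 in Sham. The MCAO loops carried 20, 11, 17, 18 and 13 PETs and the Sham loops 13, 19 and 16. All but 1 left the gene's 3′ end and ran toward Chrm3, a muscarinic receptor gene. The longest loop at channel genes in each list was among them: in MCAO it joined 9861560 to 9906576, at Chrm3, to 11522198 to 11577715 over 1666 kb with 20 PETs, and its Sham partner, over 1686 kb, carried 13 (ratio per 1000000 PETs 1.33, 0.628 to 2.90). A second loop, from 10932288 to 10969825, had 17 PETs in MCAO and a partner of 11 in Sham. The other far anchors were 10330736 to 10361953 at Chrm3 (11 PETs) and 11087577 to 11145019 (18 PETs) in MCAO, against 10212745 to 10271788 (19 PETs) and 10707725 to 10755434 (16 PETs) in Sham. The fifth MCAO loop alone used the start of Ryr2 (12092529 to 12107541) and stayed in the gene, at 11830143 to 11845098, with 13 PETs. With anchors of at most 30 kb, each list kept 1 Ryr2 loop. Ryr3 had 1 loop in MCAO and 2 in Sham. Its shared loop carried 11 PETs in MCAO and 23 in Sham, a ratio of 0.412 (0.182 to 0.881). Ryr1, of skeletal muscle, had none.

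The 3 inositol trisphosphate receptor genes differed from each other. Itpr1, the main form of neurons (chromosome 6, 108213083 to 108551116), had 1 loop in MCAO and 3 in Sham. A loop of about 0.5 Mb from its start (108184968 to 108234380 in MCAO) to 108710364 to 108759412 was in both lists, with 22 PETs in MCAO and 16 in Sham (1.19, 0.595 to 2.42). Without a partner in MCAO were a Sham loop of 29 PETs from the far end of Itpr1 (108541940 to 108561448) to Bhlhe40 (108650762 to 108675699), an activity- and hypoxia-responsive repressor gene, and one of 14 PETs within Itpr1, from 108202480 to 108218371 to 108326071 to 108339204. Itpr2, known from glia and heart (chromosome 6, 146108299 to 146502258), had 2 loops in MCAO and 0 in Sham. One joined its start (146478617 to 146521285) to 145358597 to 145383758 with 11 PETs, the other its far end (146070297 to 146113783) to Lmntd1 (145403923 to 145449624) with 14.

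Itpr3 (chromosome 17, 27057002 to 27122223) had 2 loops in MCAO and 1 in Sham, and the ratios of its 2 matched loops lay on opposite sides of 1. A loop that joined an anchor over Itpr3, Bak1 and other genes (26972344 to 27066647) to the glutamate receptor gene Grm4 (27493902 to 27547535) had 47 PETs in MCAO, the most of any channel gene end loop of that list. Its Sham partner had 22 (1.84, 1.09 to 3.21) and ended short of the Itpr3 window. The anchors were 94.3 and 53.6 kb wide in MCAO and 41.3 and 51.7 kb wide in Sham. The Sham loop at the other end of Itpr3 (27113554 to 27194186), to Grm4 and Hmga1 (27500967 to 27564666), had 33 PETs. Its MCAO partner had 12 (0.314, 0.147 to 0.623) and likewise lay outside the Itpr3 window. Here the anchors were 12.9 and 12.3 kb wide in MCAO and 80.6 and 63.7 kb wide in Sham, so each ratio favoured the list with the wider anchors. A shorter loop of 15 PETs in MCAO joined Bak1 to the far end of Itpr3.

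The plasma membrane pump genes held the largest difference in loop number and, in Sham only, the strongest loops. Atp2b2, the pump gene prominent in neurons and hair cells (chromosome 6, 113743831 to 114042613), had 3 loops in MCAO, with 10, 11 and 20 PETs, and 0 in Sham. The loop of 20 PETs joined 113926792 to 113948278 with 114034120 to 114051327 over 105 kb, and its anchors held the inner and outer start windows shown above. The loop of 11 PETs also left the outer start (114037886 to 114050105) and ended at 113767520 to 113782468 inside the gene. The loop of 10 PETs ran from the 3′ end and Sec13 (113732320 to 113747152) to 114071508 to 114078887, beyond the start. None had a partner in Sham, although a Sham loop of 10 PETs inside Atp2b2 came close to the outer start, with an anchor at 114030805 to 114039031. A Sham loop of 12 PETs held the inner start in its anchor (113932854 to 113956765) and led out of the gene, to 114147592 to 114179146. Counted by start windows Atp2b2 thus had 2 loops in MCAO and 1 in Sham, and 5 and 2 over its whole length. With the MCAO minimum raised to 12 PETs, 1 loop stood against 0.

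Atp2b1, the pump gene expressed in most cells (chromosome 10, 98914630 to 99026143), had 4 loops in MCAO, with 12, 11, 11 and 21 PETs, and 3 in Sham, with 47, 49 and 13. Summed, this was 55 PETs in MCAO and 109 in Sham, or 1.36 (1.02 to 1.77) per 1000000 library PETs in MCAO and 3.12 (2.56 to 3.76) in Sham. Both strong Sham loops were over 1 Mb long: 97778484 to 97865563 with 98879002 to 98952278 (49 PETs), and 97683273 to 97753594, at Epyc and Ccer1, with 98947928 to 99031142 (47 PETs). The first had an MCAO partner of 12 PETs, 0.296 per 1000000 PETs against 1.40, a ratio of 0.211 (0.102 to 0.403) and the lowest of the matched loops. Its anchors were 23.2 and 22.1 kb wide in MCAO and 87.1 and 73.3 kb wide in Sham, and the part of anchor width in this ratio was not tested. In MCAO the strongest Atp2b1 loop was instead the nearest, 98804950 to 98824650 with the start at 98906553 to 98920930, over 98.9 kb with 21 PETs. Atp2b4 (chromosome 1, 133702674 to 133801059) had 0 loops in MCAO and 2 in Sham, of 10 PETs each, from its start region to Lax1 (133694700 to 133699335 with 133792306 to 133804785) and to 133742710 to 133746714 in its own body. With any part of the gene counted it had 4 loops in MCAO and 3 in Sham, so the direction turned.

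**Figure D3:**
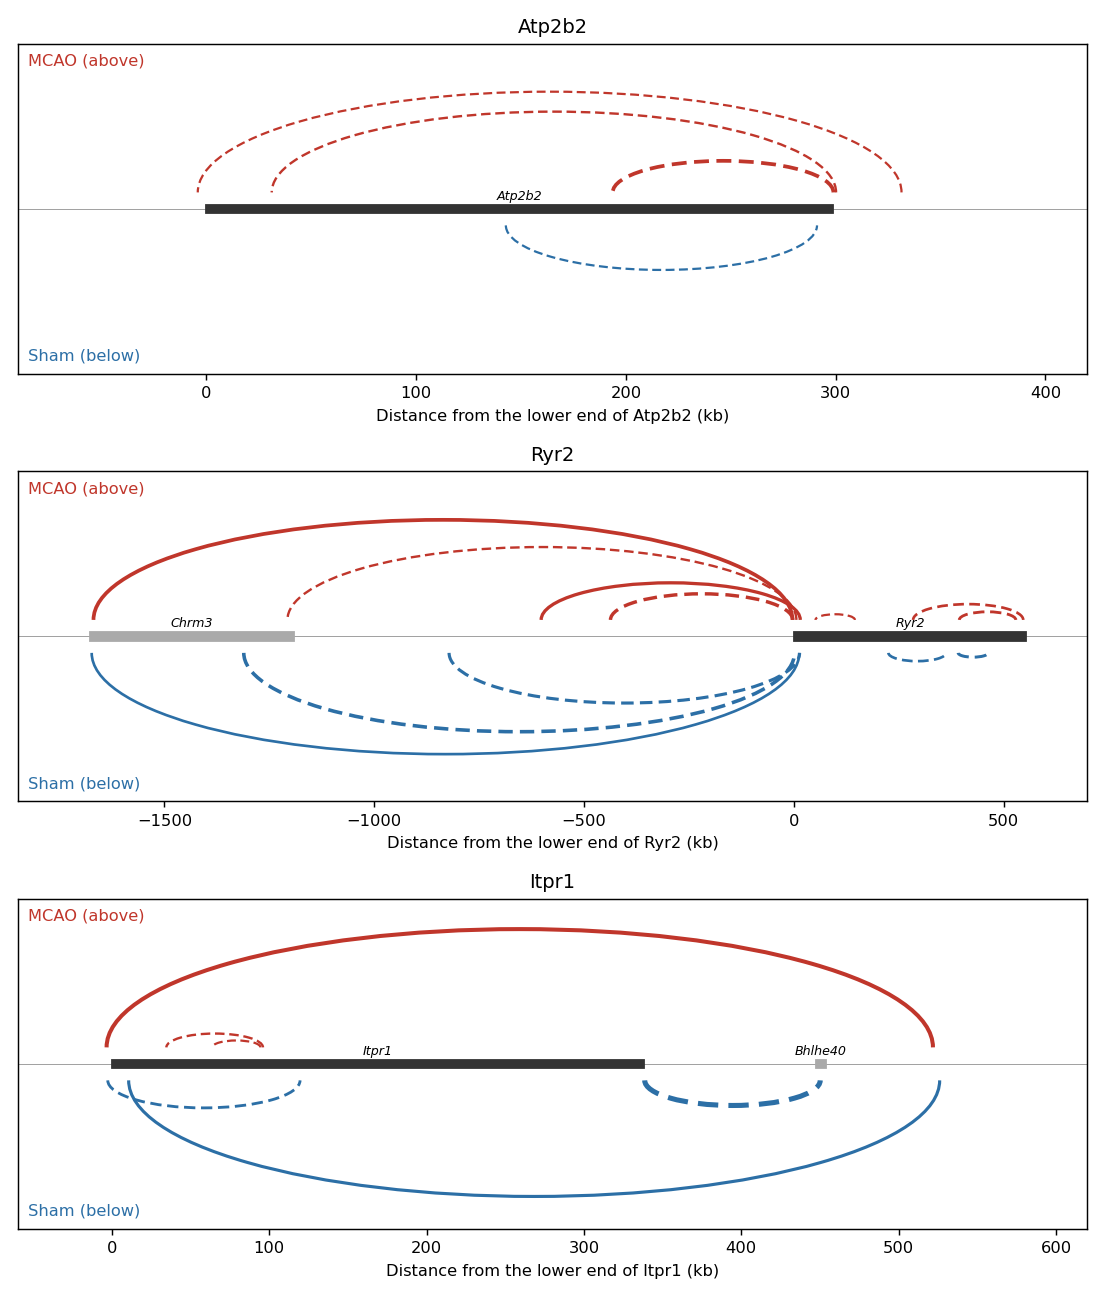
Loops at Atp2b2, Ryr2 and Itpr1, including loops with both anchors inside the gene, as arcs between anchor midpoints with MCAO above and Sham below; the horizontal axis is the distance in kb from the lower end of the gene, line width follows PETs, and solid arcs have a partner in the other list. Atp2b2 shows 3 MCAO arcs and the Sham arc with both anchors inside the gene, Ryr2 shows arcs reaching toward Chrm3 in both lists, and Itpr1 shows the Sham arc of 29 PETs to Bhlhe40.

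The share of loops found in both lists was close to that of other genes. Of the MCAO loops 14 of 49 had a partner, 28.6% (16.6 to 43.3), against 28.2% of all autosomal loops at a gene end. Of the Sham loops 14 of 42 had one, 33.3% (19.6 to 49.5), against 34.5%. Mutual nearest partners numbered 16 pairs, counting pairs in which only 1 loop reached the gene window. Their ratios of PETs per 1000000 ran from 0.211 at Atp2b1 to 1.90 at Cacng2, with a median of 1.26, and 9 lay above 1. Over all 3554 such pairs of the lists the median was 0.862, and 1455 lay above 1. The interval lay above 1 for 2 pairs (Cacng2 with Ift27, and Itpr3 with Grm4) and below 1 for 3 (Atp2b1, Ryr3, and the second Itpr3 pair). In 14 of the 16 pairs the list with more PETs per 1000000 also had the wider anchors, both widths summed, and the part of anchor width in these ratios was not tested.

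**Figure D4:**
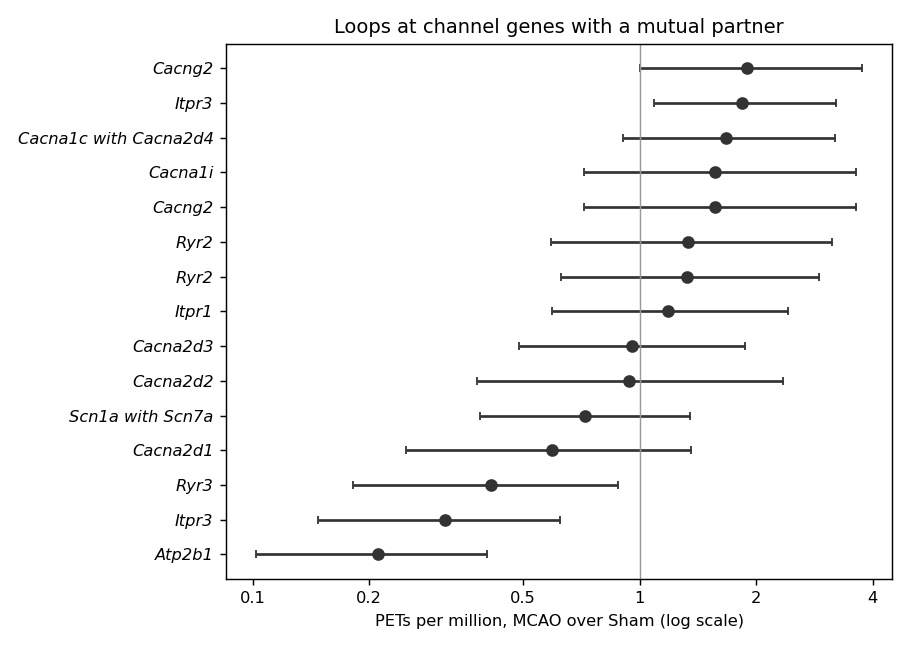
Ratio of PETs per 1000000, MCAO over Sham (horizontal log axis), for matched loop pairs at the channel genes named here, with points for the ratio and bars for the 95% interval, which covers counting error only. Pairs run from Cacng2 at the top (1.90) to Atp2b1 at the bottom (0.211), with 2 bars wholly above 1 and 3 wholly below.

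By length, loops at channel genes divided alike in the lists. Short loops under 100 kb numbered 7 in MCAO and 7 in Sham, and those over 1 Mb 5 and 4. Between these lengths, 19 MCAO loops and 18 Sham loops joined 2 gene ends, and 18 and 13 had 1 gene end. The median span was 285 kb in MCAO and 392 kb in Sham, near the 290 kb and 359 kb of all autosomal loops at a gene end. Anchors had median widths of 19.5 kb and 26.0 kb, against 20.1 kb and 25.1 kb. The median was 14 PETs in both lists, and 17 MCAO loops and 11 Sham loops had 10 or 11. Pairs of different members were joined by 3 MCAO loops, Scn1a with Scn7a in 2 cases and Cacna1c with Cacna2d4, and by 1 Sham loop, Scn1a with Scn7a.

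**Figure D5:**
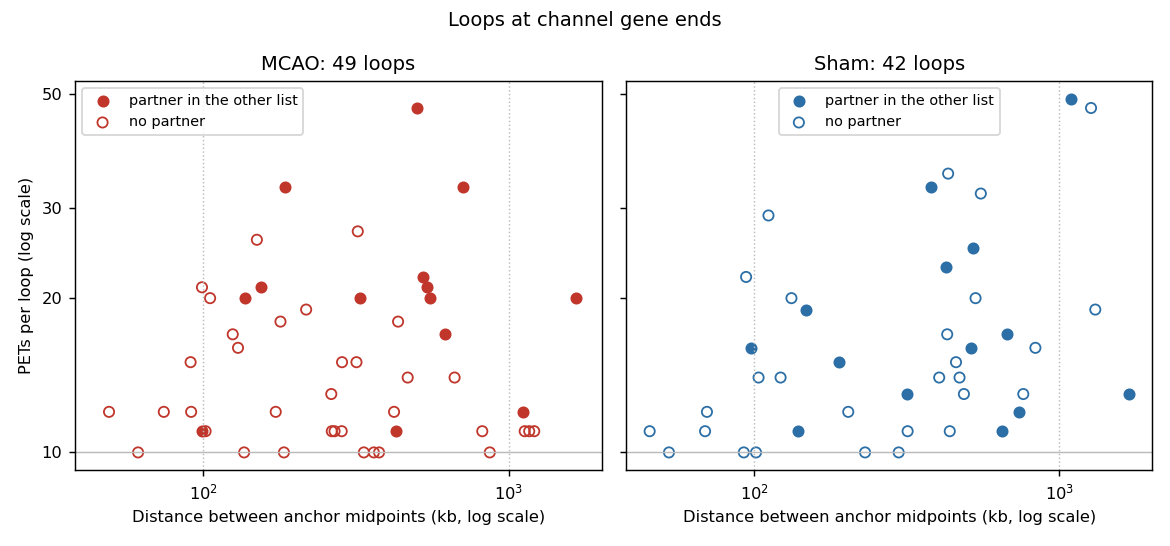
PETs per loop (vertical log axis) against the distance between anchor midpoints in kb (horizontal log axis) for loops at channel gene ends, with MCAO on the left (49 loops) and Sham on the right (42 loops). Filled points have a partner in the other list, dotted lines mark 100 kb and 1 Mb, and the grey line marks the listing minimum of 10 PETs; the highest points are Itpr3 in MCAO (47) and Atp2b1 in Sham (49).

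At start sites the ratio was larger than at gene ends, by a rule chosen after seeing the data. RefSeq windows at annotated starts, inner starts included, were known for 36 of the 48 genes, 50 windows in all. Anchors held a whole window in 31 MCAO loops and 13 Sham loops, a ratio of 2.38 (1.21 to 4.97), against 1.25 (1.21 to 1.30) for all autosomal genes. The interval of the channel genes held this 1.25. Genes with such a loop numbered 20 of 36 in MCAO, 55.6% against a background of 36.1%, and 11 of 36 in Sham, 30.6% against 31.6%. Of the 1772 genes of at least 100 kb with a window, 965 had such a loop in MCAO and 850 in Sham. Against these long genes, the share of channel genes lay near the background in MCAO and below it in Sham. More such loops in MCAO were listed at 15 genes, 41.7% against 23.2%, and fewer at 2, Cacna2d1 and Scn2b, 5.56% against 17.1%. For these shares the background was counted over all autosomal genes only. The largest differences were at Cacna1e (3 in MCAO and 0 in Sham), Cacnb4 (2 and 0), Scn2a (3 and 1) and Atp2b1 (4 and 2). With at least 15 PETs the numbers were 15 and 5, a ratio of 3.00 (1.04 to 10.6) whose interval held the 1.32 of all genes. With the MCAO minimum raised for depth they were 20 and 13, a ratio of 1.54 (0.728 to 3.37) whose interval held 1, while all genes gave 0.853. Within 2.5 kb of the outermost annotated start, the same genes had 23 MCAO loops and 15 Sham loops (1.53, 0.766 to 3.16), and at their other end 20 and 16 (1.25, 0.615 to 2.58). The difference was thus largest when inner starts were counted and whole windows required.

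Loops that join 2 starts of 1 gene were rare. The MCAO list held 20, or 0.128% of its loops, and Sham held 9, or 0.0609%. At channel genes MCAO held 2, at Scn2a and Atp2b2, and Sham 0. Only 11 channel genes had more than 1 window, so these counts are small.

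Set beside other neuronal gene families, the channel genes lay within their range by loops at gene ends and above it by start windows. Potassium channel genes (92 genes) had 112 loops in MCAO and 86 in Sham, a ratio of 1.30 (0.975 to 1.75). AMPA and NMDA receptor genes (10 genes) had 24 and 16 (1.50, 0.764 to 3.02), and GABA-A receptor genes (13 genes) had 27 and 27 (1.00, 0.564 to 1.77). For loops holding a start window, potassium channel genes gave 59 and 44 (1.34, 0.892 to 2.03), AMPA and NMDA receptor genes 9 and 6 (1.50, 0.477 to 5.12) and GABA-A receptor genes 12 and 15 (0.800, 0.342 to 1.83). The channel genes had 1.17 at gene ends and 2.38 (1.21 to 4.97) by start windows, an interval that held the ratios of the potassium channel and the AMPA and NMDA receptor genes.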

How the data were processed

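Per the labels' protocols, frozen cortex was processed with Arima reagents for Hi-C. HiC-Pro, Bowtie2 and build mm10 were used, per the submitters' processing notes. The loop caller is not given in the sources used here. Groups came from the sample titles, with 1 library each.

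PETs per loop and reads per anchor are counts that the authors deposited unscaled. The density, a signal, deposited by the authors, scales PETs by anchor length in kb and by 1000000 library PETs, and gave the library totals used for scaling. Enrichment and P2LL are ratios deposited by the authors with no definition and were not used. The p-values and FDR (at most 0.05) are deposited by the authors. The hypergeometric p-value served only to rank loops within a list. The deposited lists start at 10 PETs.

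Gene ends came from RefSeq on GRCm38.p6 and start windows from its promoter table. Loops were counted at a gene when an anchor lay within 2500 bp of an end. Partners needed both midpoints within 1 anchor width, taking the wider. Shares have exact Clopper-Pearson intervals, loop and PET ratios exact binomial intervals and sums exact Poisson intervals, at 95%. Independence of PETs as molecules is not shown, so intervals cover counting error only. Matching and counting were tested on simulated data. Python 3.11.15, pandas 2.3.3, numpy 2.4.6 and scipy 1.17.1 were used.

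The genes, the comparison families, the cell type markers and the list of other handling genes were chosen with earlier results of these data known. Members with a loop at an end are named, and loops are given in full for the Scn cluster, for members that differ by at least 2 loops and for the 5 loops with the most PETs per list. A few genes that fall under these rules were counted but are not reported here by name. Alternatives covered the window, the whole gene, 15 PETs, a depth-scaled minimum, the better part of each list by hypergeometric p-value, span, anchor width, the matching rule and the size of difference. Start windows, the settings for them and those for the cluster were added after seeing the data. CTCF motifs outside start windows were not analysed here.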

Additional observations from a re-analysis of the deposited data

How the results depend on the processing

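Both lists begin at 10 PETs, and 17 of 49 MCAO loops and 11 of 42 Sham loops at channel genes had 10 or 11, so depth limits which of these are listed. No paired analysis was possible because each group has a single library. Of the results that answer a comparison, 122 values under an alternative stayed within counting error or within 1.5 times the value reported, and 22 did not. At counts this small, staying did not require the same direction. Across the settings, every family difference in gene-loop pairs except sodium alpha and calcium beta lay on both sides of 0. Calcium alpha1 ran from -3 to 9, calcium gamma from -3 to 3 and the pumps from -2 to 4, all counted as staying. Of the single genes 33 stayed, 36 moved and 3 turned.

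The number of genes with at least 2 more loops in MCAO, 4 as reported, was 9 with any part of the gene counted, 0 with at least 15 PETs, 1 with the MCAO minimum scaled to depth, 2 in the better part of each list, 2 with anchors of at most 30 kb and 1 at a difference of 3. The number with at least 2 fewer, also 4, was 0 with at least 15 PETs, 6 with the MCAO minimum scaled to depth, 2 with anchors of at most 30 kb, 0 with start windows and 0 at a difference of 3. The backgrounds of 10.2% and 5.45% were 17.5% and 10.2% for genes of at least 100 kb. The sodium beta difference of -1 was -2 with anchors of at most 30 kb, -2 for loops on the better side of the median p-value, 1 for loops of at least 100 kb and -1 with start windows (0 and 1), where the ryanodine difference was 1 and the inositol trisphosphate difference 2. The ratio of all channel gene loops was 2.38 with start windows. It was 0.762 with the depth-scaled minimum and 0.926 for loops on the better side of the median p-value. With midpoints within 10 kb the shared percentages were 10.2 in MCAO and 11.9 in Sham. The cluster ratio was 1.50 with at least 15 PETs. Cacng5 turned to 1 more loop in MCAO with a window of 10 kb and to 1 more with start windows, and Atp2b4 to 1 more with any part of the gene. The cause was not tested.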

Other observations

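Other genes of sodium and calcium handling were put in a hand-picked list with earlier results of these data known. The 51 genes had 87 distinct loops in MCAO and 52 in Sham, a ratio of 1.67 (1.17 to 2.41), an interval that held the 1.24 of all autosomal loops at a gene end. At least 2 more loops in MCAO stood at 13 genes, 25.5% against a background of 10.2%, and at least 2 fewer at 4, 7.84% against 5.45%. Their median length was 91.3 kb, against 17.5 kb for all genes, and among genes of at least 100 kb the backgrounds were 17.5% and 10.2%. Ppp3ca, the catalytic calcineurin gene, had 8 loops in MCAO and 2 in Sham. Nedd4l, a ubiquitin ligase gene whose product removes sodium channels from the membrane, had 6 and 0. Camk2b and Camk2a, of the calmodulin-dependent kinase, had 3 and 1 and 3 and 2.

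The sodium-calcium exchanger genes ran in opposite directions, with 0 loops in MCAO and 3 in Sham at Slc8a1, 3 and 0 at Slc8a2 and 2 and 2 at Slc8a3. Fewer loops in MCAO also stood at Fgf14, which encodes a sodium channel partner (0 and 2), at the active zone gene Rims2 (2 and 4) and at the calcium buffer gene Calb2 (0 and 2). Of the mitochondrial calcium uniporter genes, Mcu had 1 and 0, Mcub 2 and 0 and Micu2 3 and 1. These are values of 1 library per group, and no alternative setting was run for them.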
